A study of Mus musculus with 4 samples.

Results

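Formative, primed and early lineage factors are genes tied to the exit of mouse embryonic stem cells (ESCs) from the naive state and to early lineages. Not all of them are silent before that exit, and their levels in control are given below. Here they are 10 genes of the 55335 in the count table, found by their symbols. The formative group holds Fgf5, Otx2, Pou3f1, Foxd3 and Zic2, and the lineage group holds T, Eomes, Mixl1, Cdx2 and Pax6. All 10 were found once each, and the positions below are those of GENCODE M21 (GRCm38), where each has the same identifier version.

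RNA-seq was performed on AB2.2, a single mouse ESC line, in 4 libraries. The 2 control libraries came from cells without lactate, and the 2 lactate libraries from cells to which 50 mM lactate was given for 24 h. Cells of both groups grew on MEF feeders (mouse embryonic fibroblasts that support ESCs) in a medium that held serum (15%) and LIF (1000 U/mL) together with CHIR99021 at 3 μM and PD0325901 at 1 μM. The labels do not say whether the libraries of a group came from separate cultures, so p-values measure only the spread between these libraries, which may be technical. The comparison addresses how lactate changes the transcriptome of ESCs, and here how it bears on the formative and lineage factors.

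Naive ESCs resemble the epiblast of the blastocyst. On the way to gastrulation they pass through a formative state, marked by Fgf5, Otx2 and Pou3f1, before they become primed for the germ layers. FGF signalling through MEK and ERK drives this exit, while Wnt signalling through β-catenin sustains the naive state and, later, switches on mesoderm genes such as T. The medium of both groups held an inhibitor of MEK (PD0325901) and an inhibitor of GSK3 that stabilises β-catenin (CHIR99021).

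Libraries held between 18067562 and 19077885 reads on genes. All 12 naive and general ESC markers were counted in every library, with between 698 and 25492 reads each. All 14 feeder fibroblast markers were counted in every library too, so the RNA was that of ESCs together with feeders. In such bulk RNA, fewer cells of a type and less RNA per cell cannot be told apart. The 2 libraries of a group differed beyond counting noise, with a chi-square over genes of 32.2 times its degrees of freedom for control and 31.4 times for lactate, and each was kept.

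None of the 10 genes was called between lactate and control. A gene was called where edgeR's quasi-likelihood test gave a change beyond 2-fold and an adjusted p-value below 0.05, and 0.9% of the 18661 genes tested met this. By the adjusted p-value alone the members called were again 0, beside 0.991% of all genes tested. DESeq2 also called 0 of the members, beside 190 higher and 168 lower among the 32923 genes in its fit. Limma-trend called 0 of all 20019 genes it tested, so its 0 for the members says nothing about them. Of the members, 7 passed the filter on low counts and were tested, while Fgf5, Mixl1 and Cdx2 were too low. At an unadjusted p-value under 0.05, 1 member was higher (Otx2) and 1 was lower (Foxd3), which is 28.6% of the 7 beside 23.1% of all genes tested. In CPM these were also the 2 tested members whose groups did not overlap, as was so for 52.9% of all genes tested. In FPKM Otx2 and Foxd3 did not overlap either, nor did Pou3f1, Pax6 and Mixl1, which overlapped in CPM. The share of all genes without overlap in FPKM was not taken, so these separations have no background beside them. Mixl1 was also not among the genes tested. The median log2 fold change of the 7 was −0.02, beside 0.01 over all genes tested.

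**Figure D1:**
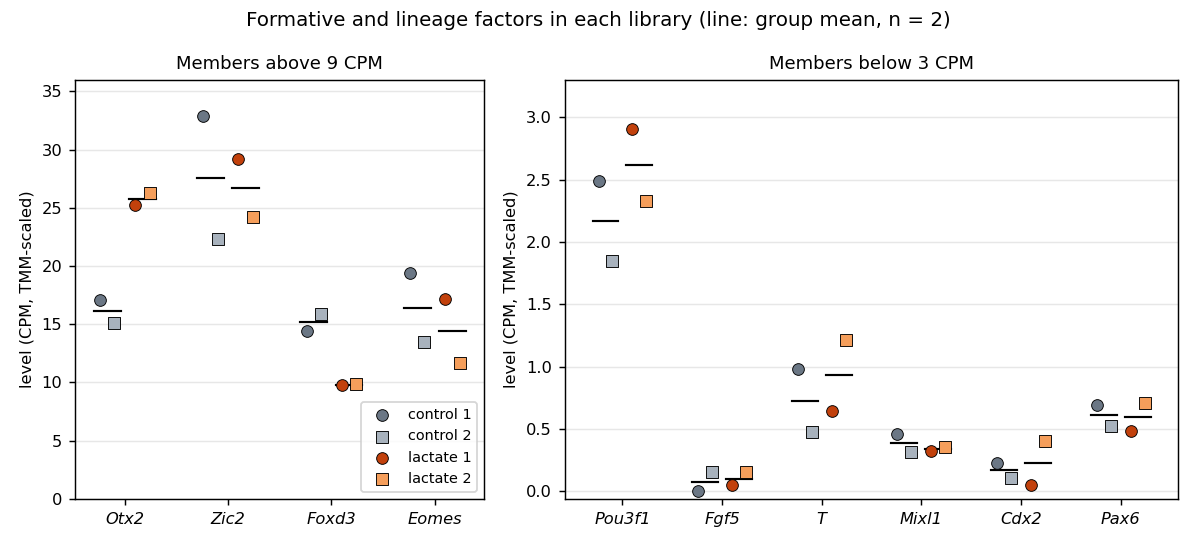
Level of each of the 10 genes in each library, in CPM (read counts relative to the library's total after TMM scaling), with both control and both lactate libraries as points and the group mean as a line. Otx2 sits at 15.1 to 17.1 CPM in control and 25.3 to 26.3 in lactate, Foxd3 at 14.5 to 15.9 and 9.79 to 9.83, and the points of the other 8 genes overlap between groups.

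The members fell into levels far apart. Levels between genes are compared in FPKM, which divides by transcript length. In the control mean, Zic2 and Otx2 stood at 10.3 and 10.1 FPKM, and Eomes and Foxd3 at 5.63 and 5.59 FPKM. Each of these pairs overlapped between its own 2 libraries, and the first pair lay above the second in both. T, Pax6 and Pou3f1 followed at 0.640, 0.605 and 0.490 FPKM, and Mixl1, Cdx2 and Fgf5 at 0.155, 0.080 and 0.025 FPKM. The ranges of T and Pax6 overlapped, as did those of Pax6 and Pou3f1, those of Mixl1 and Cdx2, and those of Cdx2 and Fgf5, while Pou3f1 lay above Mixl1. In the lactate mean Otx2 passed Zic2 to become the highest, at 16.4 FPKM against 10.4 FPKM, and Pou3f1 passed Pax6. The FPKM of Pax6 rests on estimated transcript lengths that differed between libraries.

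Otx2 encodes a homeodomain protein that redirects Oct4 to new enhancers as cells leave the naive state. It lies on the minus strand of chromosome 14 (GRCm38, 48657677 to 48673819). It was counted with 296 and 287 reads in control and 470 and 519 reads with lactate. These are levels of 17.1 and 15.1 CPM in control and 25.3 and 26.3 CPM with lactate, and the 2 groups did not overlap, with lactate above. Among all genes tested, 27% were likewise higher without overlap. The mean level was 16.1 ± 1.41 CPM in control and 25.8 ± 0.724 CPM with lactate (SD, n = 2). This is a log2 fold change of 0.68 (SE 0.16), or 1.60-fold with a 95% interval of 1.23 to 2.08. Its p-value was 0.00457 before adjustment and its adjusted p-value 0.0814 (edgeR), so Otx2 missed both parts of the call. Of all genes tested, 15.4% had a log2 fold change at least as large in size.

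Foxd3 encodes a forkhead repressor needed for pluripotency and for the passage out of the naive state. It is a gene of 1 exon on chromosome 4 (99656299 to 99658622). It had 250 and 301 reads in control and 182 and 194 reads with lactate. Both lactate libraries, at 9.79 and 9.83 CPM, lay below both control libraries, at 14.5 and 15.9 CPM, as was so for 25.9% of all genes tested. The mean level was 15.2 ± 0.995 CPM in control and 9.81 ± 0.0306 CPM with lactate (SD, n = 2). This is a log2 fold change of −0.63 (SE 0.17), or 0.647 times control (95% interval 0.489 to 0.857). The p-value was 0.00875 before adjustment and the adjusted p-value 0.105 (edgeR). Without control replicate 2 the unadjusted p-value of Foxd3 was 0.0725, and 1 member in place of 2 stayed under 0.05.

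Feeder and endoderm RNA was followed beside these values. The summed level of the 14 feeder markers was 722 and 995 CPM in control and 734 and 812 CPM with lactate. None of the 14 was called. At an unadjusted p-value under 0.05, 2 of them, Col3a1 and Prrx1, were lower, or 14.3% of the 14 beside 11.4% of all genes tested. The 10 primitive endoderm markers summed to 535 and 587 CPM in control and 579 and 576 CPM with lactate. The groups overlapped in both sums. The 12 ESC markers summed to 5484.5 and 5409.7 CPM in control and 6206.6 and 5932.1 CPM with lactate, without overlap. By gene, 2 of the 14 feeder markers and 7 of the 8 tested endoderm markers did not overlap between groups, the latter with 6 higher and 1 lower, beside 52.9% of all genes tested. The lower one, Sparc, made up the largest share of the endoderm sum, at 342 CPM in control and 269 CPM with lactate on average, and fibroblasts express it too. The part of feeder, endoderm or ESC numbers in the levels of Otx2 and Foxd3 was not tested.

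Zic2, a zinc finger factor that binds enhancers in ESCs, lies on chromosome 14 (122475435 to 122479852). It had 569 and 423 reads in control and 542 and 477 reads with lactate. Its levels were 32.9 and 22.3 CPM in control and 29.2 and 24.2 CPM with lactate, so the lactate libraries lay between the control libraries. Lactate and control differed by a log2 fold change of −0.05 (SE 0.22), and the 95% interval of the fold, 0.663 to 1.41, leaves out a 2-fold change in either direction (adjusted p-value 0.926, edgeR). Its sign turned under some settings, as shown for all tested members in the plot of alternatives.

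Pou3f1 (also called Oct6), a POU-domain factor of the formative epiblast and of neural progenitors, lies on chromosome 4 (124656807 to 124660655) and has 1 exon. It had 43 and 35 reads in control and 54 and 46 with lactate, or 2.49 and 1.84 CPM in control and 2.90 and 2.33 CPM with lactate. In CPM the groups overlapped, since the lower lactate library lay under the higher control library. Lactate and control differed by a log2 fold change of 0.28 (SE 0.28, 95% interval of the fold 0.761 to 1.93, adjusted p-value 0.604, edgeR).

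Fgf5, the secreted ligand most used as a marker of the post-implantation epiblast, lies on chromosome 5 (98254184 to 98277030). It had 0 and 3 reads in control and 1 and 3 reads with lactate. No library went above the floor of 3 reads, which is 0.152 to 0.173 CPM at these depths, so no fold is given. Fgf5 was not detectable above that floor at this depth in any library of either group.

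**Figure D2:**
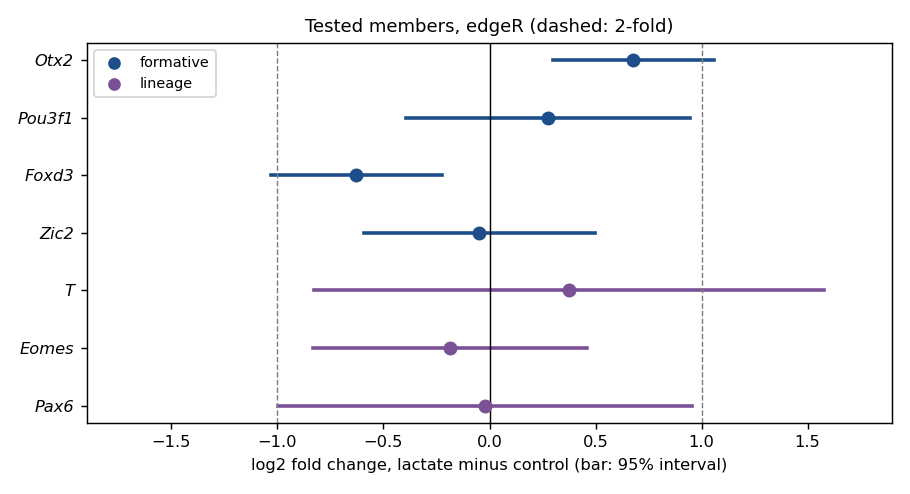
Log2 fold change of the 7 tested genes, lactate minus control, with its 95% interval as a bar and a 2-fold change as dashed lines. The bars of Otx2 (0.30 to 1.06) and Foxd3 (−1.03 to −0.22) leave out 0, and those of Pou3f1, Zic2, T, Eomes and Pax6 cross it.

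T, or Brachyury, is the T-box factor of the primitive streak and nascent mesoderm and a direct target of Wnt signalling. It lies on chromosome 17 (8434423 to 8442496). It had 17 and 9 reads in control and 12 and 24 with lactate, or 0.983 and 0.474 CPM in control and 0.646 and 1.22 CPM with lactate. The groups overlapped, and a difference between the libraries of 1 group was wider than that between the group means. Lactate and control differed by a log2 fold change of 0.37 (SE 0.50), and the interval of the fold, 0.564 to 2.98, held both 1 and 2 (adjusted p-value 0.707, edgeR). Left-out libraries moved the log2 fold change of T between −0.16 and 0.96.

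Eomes, a T-box factor of trophoblast and of definitive endoderm and mesoderm, lies on chromosome 9 (118478212 to 118486132). It was the highest of the lineage group, with 336 and 255 reads in control and 319 and 231 with lactate. Its levels were 19.4 and 13.4 CPM in control and 17.2 and 11.7 CPM with lactate, and the groups overlapped. Lactate and control differed by a log2 fold change of −0.19 (SE 0.27, 95% interval of the fold 0.562 to 1.37, adjusted p-value 0.731, edgeR).

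Pax6, a paired and homeodomain factor of neuroectoderm and eye, lies on chromosome 2 (105668900 to 105697364). It had 12 and 10 reads in control and 9 and 14 with lactate, or 0.694 and 0.527 CPM in control and 0.484 and 0.710 CPM with lactate. The control libraries lay between the lactate libraries. Lactate and control differed by a log2 fold change of −0.02 (SE 0.40), and the interval of the fold was 0.501 to 1.94 (adjusted p-value 0.987, edgeR). In FPKM, Pax6 stood at 0.540 and 0.670 in control and at 0.260 and 0.510 with lactate, without overlap. FPKM divides by RSEM's estimated transcript lengths, which were 1498 and 1125 bases in control and 2209 and 1638 bases with lactate. The expected counts of Pax6, 10 and 9 in control and 8 and 11 with lactate, overlapped. From the FPKM values limma-trend gave a log2 fold change of −0.58 at a pseudocount of 0.1 (adjusted p-value 0.562) and −0.22 at a pseudocount of 1 (adjusted p-value 0.550).

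Mixl1, a homeodomain factor of mesendoderm on chromosome 1 (180693043 to 180697034), had 8 and 6 reads in control and 6 and 7 with lactate. Cdx2, the homeodomain factor that specifies trophectoderm and later the posterior body, lies on chromosome 5 (147300805 to 147307270) and had 4 and 2 reads in control and 1 and 8 with lactate. Neither passed the filter. The groups overlapped for both genes. Scaled for depth, the ratio of lactate to control reads was 0.879 for Mixl1 (exact 95% binomial interval 0.380 to 2.02) and 1.42 for Cdx2 (0.451 to 4.85). These intervals cover counting error only. Without the filter, edgeR gave Fgf5, Mixl1 and Cdx2 unadjusted p-values of 0.843, 0.700 and 0.636.

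**Figure D3:**
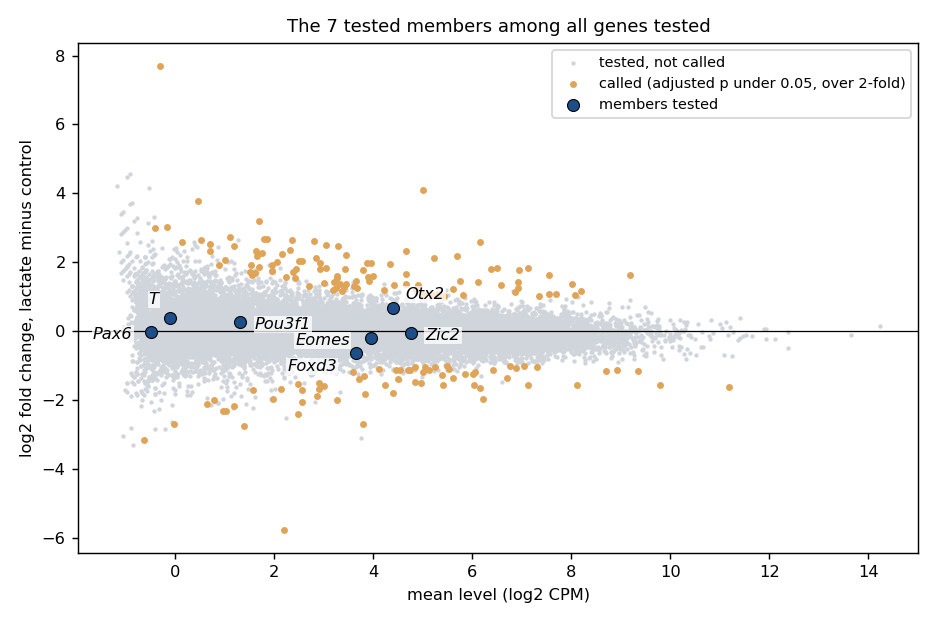
Log2 fold change, lactate minus control, against mean level in log2 CPM for the 18661 genes tested, with called genes in orange and the 7 tested members in blue. All 7 lie among the grey genes that were not called, with Otx2 at 0.68 and Foxd3 at −0.63 the farthest from 0 of the 7.

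By group, the 4 tested formative genes had a median log2 fold change of 0.11 with 2 higher and 2 lower, and the 3 tested lineage genes had a median of −0.02 with 1 higher and 2 lower. No test compared the groups, and with 2 libraries a side the smallest two-sided permutation p for a single gene is 0.333.

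The RSEM tables, which estimate reads by transcript, were set beside the raw counts. For Foxd3 the expected counts were between 64.8% and 69.1% of the raw counts, for Zic2 between 63.3% and 72.8%, and for Eomes between 95.2% and 102.6%. For Otx2 the share was 85.8% and 83.3% in control and 80.9% in both lactate libraries, lower with lactate without overlap. In the fit on expected counts the log2 fold change was 0.595 for Otx2 and −0.62 for Foxd3. For some low genes the order of the libraries of a group differed between the tables. Pax6 had 12 and 10 raw reads in control but 0.540 and 0.670 FPKM, and Mixl1 had 8 and 6 raw reads in control but 0.130 and 0.180 FPKM. For T, lactate replicate 1 had 12 raw reads and 1.08 FPKM, while lactate replicate 2 had 24 raw reads and 0.810 FPKM. RSEM gave T a mean transcript length of 1009 bases in the first and 1668 bases in the second, so the FPKM of T turns on a transcript mix estimated from few reads.

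The positions of the members brought in neighbours. Otx2 shares 154 exonic bases with Otx2os1 on the opposite strand, which had 7 and 5 reads in control and 14 and 9 with lactate. Whether counting used strand is not given in the sources used here, and without strand the reads of these 2 genes cannot be told apart where they overlap. Otx2os1 had at most 14 reads in a library, beside 287 or more for Otx2. Otx2 also shares 168 exonic bases with Gm49154 on the same strand, where strand would not separate them. Gm49154 had 0 and 0 reads in control and 1 and 0 with lactate. Pou3f1 shares 330 exonic bases with the antisense gene Gm2164, which had 0 and 1 reads in control and 2 and 0 with lactate. Eomes shares 118 exonic bases with the antisense gene Gm33460, which had 14 and 15 reads in control and 24 and 31 with lactate, a log2 fold change of 0.84 (p-value 0.0325 before adjustment, adjusted p-value 0.177, edgeR). Zic5, which lies beside Zic2 on the opposite strand and shares no exonic base with it, had 531 and 436 reads in control and 688 and 548 with lactate, a log2 fold change of 0.27 (adjusted p-value 0.502, edgeR). Gm12688, a lincRNA upstream of Foxd3, had 56 and 61 reads in control and 48 and 76 with lactate and a log2 fold change of 0.00, beside −0.63 for Foxd3. The difference between these values was not tested. Gm23366, a microRNA gene inside the exon of Foxd3, had at most 5 reads.

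Another 6 lists of related genes were followed, with 87 genes in all, of which 4 stand in 2 lists. They were put together by role, with results of these data known. Of the 62 genes tested, 2 were called higher and 1 lower, beside 0.552% and 0.348% of all genes. Both higher genes were on the list of ERK targets and the lower gene on the mesendoderm list. The split of all calls was 103 higher and 65 lower, and 108 higher and 40 lower with the libraries scaled by their totals alone.

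Of 21 other formative and primed genes, 20 were tested and none was called, by edgeR. At an unadjusted p-value under 0.05, 1 was higher and 4 were lower, or 25% of the 20 beside 23.1% of all genes tested. The median log2 fold change was −0.20. Lefty1, a secreted inhibitor of Nodal, had 465 and 767 reads in control and 185 and 299 with lactate, a log2 fold change of −1.42 (adjusted p-value 0.0640, edgeR). Dnmt3b, the de novo DNA methyltransferase that marks formative cells, had 2036 and 2191 reads in control and 1407 and 1563 with lactate, with a log2 fold change of −0.59 and an adjusted p-value of 0.0688. Sox4, an SRY-box factor, was at 16.4 ± 0.685 CPM in control and 25.9 ± 0.830 CPM with lactate, with a log2 fold change of 0.66 and an adjusted p-value of 0.0796. Its size was close to that of Otx2. DESeq2 gave Lefty1 an adjusted p-value of 0.000103 and a change of more than 2-fold, so Lefty1 was called there, and over all alternatives its adjusted p-value ran from 1.21e-09 to 0.243.

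Of 17 other mesendoderm genes, 6 passed the filter, and the 11 that did not had at most 13 reads in any library. Cer1, a marker of anterior endoderm, had 0 reads in all 4 libraries. Wnt3a, a Wnt ligand of the primitive streak, fell from 2.61 ± 0.258 to 0.651 ± 0.0834 CPM (SD, n = 2), from 42 and 53 reads to 11 and 14. Its log2 fold change was −1.99 (SE 0.29, adjusted p-value 0.0474, edgeR). The call of Wnt3a was lost without control replicate 1 or 2, at adjusted p-values of 0.118 and 0.0930, with libraries scaled by their totals alone (0.0530), on expected counts (0.0660) and with limma-trend at either pseudocount (0.243 and 0.242), while both lactate libraries lay below both control libraries. T, beside it, had the levels given above with groups that overlapped.

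Of 16 other neuroectoderm genes, 7 were tested and none was called by edgeR. Before adjustment 1 was under 0.05, or 14.3% of the 7 beside 23.1% of all genes tested. That gene was Neurod1, a proneural factor, with 108 and 64 reads in control and 22 and 17 with lactate, a log2 fold change of −2.22 and an adjusted p-value of 0.0563. DESeq2 called it, with an adjusted p-value of 0.000992, and over all alternatives the value ran from 3.81e-07 to 0.243. The 9 genes below the filter had at most 10 reads in any library.

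Of 15 genes on the trophectoderm list, 13 were tested and none was called by edgeR. At an unadjusted p-value under 0.05, 2 were higher and 4 lower, beside 11.7% and 11.4% of all genes tested. The 2 higher were Gata3 and Cdx1, and Cdx1 is counted on the Wnt list as well. The 4 lower were Ascl2, Krt8, Krt19 and Tead4. Log2 fold changes were −1.09 for Krt8, −0.93 for Krt19 and −0.33 for Tead4. Ascl2, a trophoblast factor and Wnt target, had a log2 fold change of −1.96 (adjusted p-value 0.0543). Cdx1, a homeodomain factor related to Cdx2 and a target of Wnt signalling, had 156 and 219 reads in control and 437 and 591 with lactate. Its log2 fold change was 1.38 (SE 0.21, adjusted p-value 0.0502, edgeR), just above the threshold. Cdx1 passed under 8 of 15 alternatives, with adjusted p-values from 5.06e-09 to 0.243. Gata3, a trophectoderm factor, had a log2 fold change of 1.24 and an adjusted p-value of 0.115. Cdx2, the defining gene of this lineage, had at most 8 reads in a library.

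Of 12 Wnt targets, 10 were tested, with 3 higher and 3 lower at an unadjusted p-value under 0.05 (11.7% and 11.4% of all genes tested), none called by edgeR and a median log2 fold change of −0.02. Cdx1, described above, had the highest log2 fold change of the list. Tcf7, which encodes a partner of β-catenin, and Notum, an extracellular inhibitor of Wnt, had log2 fold changes of −0.98 and −1.11, with adjusted p-values of 0.0559 and 0.0578 (edgeR).

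All 10 ERK targets were tested, and 5 were higher and 0 lower at an unadjusted p-value under 0.05, beside 11.7% and 11.4% of all genes tested, with a median log2 fold change of 0.46. Spry2 and Spry4, inhibitors of receptor tyrosine kinase signalling that are switched on by ERK, were called as higher. Spry2 rose from 37.2 ± 6.02 to 100.9 ± 12.8 CPM (SD, n = 2). The difference on the log2 scale was 1.44 (SE 0.17, adjusted p-value 0.0406, edgeR). Spry4 rose from 8.04 ± 1.15 to 22.1 ± 0.00404 CPM, a log2 fold change of 1.45 and edgeR gave it the same adjusted p-value as Spry2. Without control replicate 1 both calls were lost, at adjusted p-values of 0.118 and 0.147, and no gene of the 6 lists was called. Spry2 also lost its call on expected counts (0.0525), and with limma-trend on FPKM both genes did, at 0.239 and 0.207 for Spry2 and 0.238 and 0.200 for Spry4. Dusp6, an ERK phosphatase, had a log2 fold change of 1.09 and an adjusted p-value of 0.0553, while Etv4 and Etv5 had −0.28 and −0.18. Fgf5, the FGF ligand among the members, stayed at or under 3 reads in the same libraries.

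**Figure D4:**
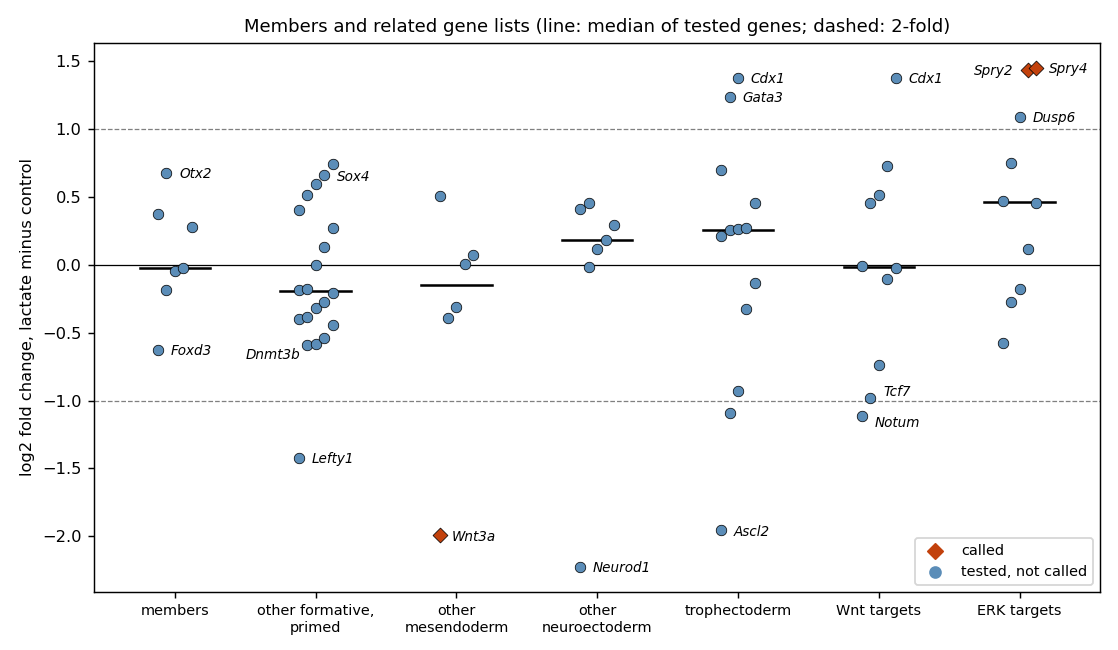
Log2 fold change, lactate minus control, of each tested gene among the members and in 6 related lists, with called genes as orange diamonds, the median of each list as a line and 2-fold as dashed lines. The members lie between −0.63 and 0.68, while Wnt3a at −1.99 and Spry2 and Spry4 at 1.44 and 1.45 are the called genes.

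The values of the members were followed over 15 other ways of processing. Otx2 stayed higher with lactate under all 15, with log2 fold changes from 0.59 to 0.76, and Foxd3 stayed lower under all 15, from −0.70 to −0.44. Pou3f1 stayed higher under all 15, from 0.07 to 0.50, with no adjusted p-value under 0.05. The sign of Zic2, T, Eomes and Pax6 turned under at least 1 of them.

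**Figure D5:**
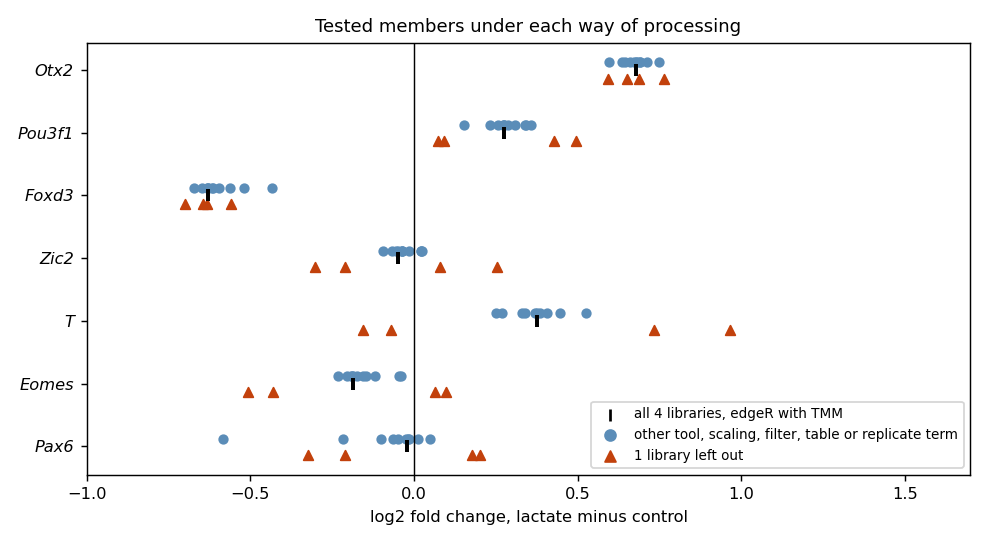
Log2 fold change of the 7 tested members, lactate minus control, under edgeR with TMM on all 4 libraries (bar), under other tools, scalings, filters, tables or a replicate term (circles), and with 1 library left out (triangles). Circles and triangles of Otx2 and Foxd3 stay on 1 side of 0, and triangles of T spread from −0.16 to 0.96.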

How the data were processed

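RNA-seq was analysed from AB2.2 ESCs, with 2 control and 2 lactate libraries. The authors trimmed reads with cutadapt 1.16, mapped them with STAR to mm10 (GENCODE M23) and deposited a matrix of raw read counts per gene and per transposable element family, without normalization. The authors also deposited RSEM's gene estimates for each library in 3 units, namely TPM, FPKM and expected counts. The 1153 rows of transposable elements were left out.

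Counts were analysed here in R 4.3.3 with edgeR 4.0.16 (legacy quasi-likelihood test, filterByExpr, TMM, no replicate term), and p-values were adjusted over all 18661 genes tested by the Benjamini-Hochberg method. The interval of a fold change comes from its standard error and the t distribution of the test. DESeq2 1.42.0, limma 3.58.1 on log2 FPKM (pseudocount 1 or 0.1, genes above 0.1 FPKM on average), other scalings and filters, the rounded expected counts and each library left out were alternatives. FPKM ranks were compared with TPM ranks. The scripts were tested on simulated counts.

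The members and lists were chosen with earlier results of these data known. Named genes are the 10 members, the called genes of each other list, and up to 3 genes per list with the largest changes among those at an unadjusted p-value under 0.05 whose groups did not overlap. Zic5, Cer1, Etv4, Etv5, Sparc, Prdm14, Klf2, Pou5f1, Krt8, Krt19 and Tead4 were named outside this rule. So were the neighbours within 10000 bases of a member.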

Additional observations from a re-analysis of the deposited data

How the results depend on the processing

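No member was called under any alternative, nor, without the replicate block, by the adjusted p-value alone. The members at an unadjusted p-value under 0.05 numbered 2 under every setting except limma-trend on log2(FPKM + 1), with 1, and the left-out libraries, with 1 to 2. The called genes of the 6 other lists numbered 3, against 11 with DESeq2, 13 without the filter, 11 with the replicate block, 1 on the RSEM expected counts, 0 with limma-trend at either pseudocount, and 0 to 11 with 1 library left out. Over all genes, 103 higher and 65 lower calls became 190 and 168 with DESeq2, 482 and 325 without the filter, 761 and 395 with the replicate block, 27 and 17 on expected counts, 0 and 0 with limma-trend, and 4 to 522 higher and 4 to 365 lower with 1 library left out. The cause of these shifts was not tested.

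Signs turned for 4 members. Zic2 had a log2 fold change of 0.0206 with library totals alone, 0.0227 with limma-trend at a pseudocount of 1, 0.0249 at 0.1, and −0.30 to 0.25 with 1 library left out. Pax6 had 0.0127 with upper-quartile factors, 0.0485 with library totals alone and −0.32 to 0.20 with 1 left out, beside −0.58 with limma-trend at a pseudocount of 0.1 and −0.22 at 1. T ran from −0.16 to 0.96 and Eomes from −0.51 to 0.10 with 1 left out.

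The labels number the libraries 1 and 2 in both groups but do not say that a number marks a shared culture or day. The difference of replicate 1 minus replicate 2 within control correlated across genes with that within lactate (r = 0.56). Genes are not independent replicates. With the replicate block, Otx2 had an adjusted p-value of 1.89e-05 at 0.68 and Foxd3 of 0.000229 at −0.63 (edgeR), both under 2-fold. These were the only alternatives in which either passed 0.05. Over all 15 alternatives the adjusted p-value ran to 0.341 for Otx2 and 0.407 for Foxd3. Depth limits T, Pax6, Mixl1, Cdx2 and Fgf5, which had at most 24 reads in a library.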

Other observations

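Markers of the naive state and of primitive endoderm were measured in the same fit. Of the 12 ESC markers, 5 were higher and 2 lower at an unadjusted p-value under 0.05, beside 11.7% and 11.4% of all genes, and none was called by edgeR. Sox2, a core pluripotency factor, was at 342 ± 1.13 CPM in control and 504 ± 29.4 CPM with lactate (SD, n = 2), a log2 fold change of 0.56 and an adjusted p-value of 0.0888. Klf5, a naive factor, had a log2 fold change of 0.93 (adjusted p-value 0.175) with 3651 and 2233 reads in control and 7250 and 4687 with lactate. Zfp42 (Rex1), a naive marker, had a log2 fold change of 0.52 (adjusted p-value 0.112). Of the markers with lower values, Prdm14 had a log2 fold change of −0.33 (adjusted p-value 0.194) and Klf2 of −0.34 (0.216), and Pou5f1 had −0.40 with groups that overlapped (0.318). Of 8 tested primitive endoderm markers of 10, 3 were higher and 1 lower at an unadjusted p-value under 0.05, beside the same shares of all genes, and none was called. Lama1, a laminin chain, had a log2 fold change of 0.69 (adjusted p-value 0.0684), Pdgfra, a receptor of the primitive endoderm, of 0.99 (0.0879), and Gata4, an endoderm factor, of 0.67 (0.163). Among the feeder markers, Col3a1, a fibrillar collagen, had a log2 fold change of −0.90 (0.105) and Prrx1, a mesenchymal homeodomain factor, of −0.57 (0.124).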
